A study of Mus musculus with 8 samples.

Results

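The genes described here were 40 genes of protein folding, chosen by name from the 50686 gene IDs of the count table: 22 for cytosolic chaperones, 2 for the mitochondrial chaperonin (Hspd1 and Hspe1) and 16 for the endoplasmic reticulum (ER). Hspd1 and Hspe1 were in the list although their products work in mitochondria, and Xbp1 was listed with the ER genes although it encodes a transcription factor and not a chaperone. All 40 symbols matched 1 row each. The choice by name used no measured value, but earlier results of these data were known when it was made.

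The RNA came from ILC2, the group 2 innate lymphoid cells, whose main products are cytokines such as IL-5 and IL-13. They were thymic cells of plck-Id1 transgenic mice on the C57BL/6 background. Id1 binds E proteins and blocks their activity, and E47 is an E protein. The cells were transduced with the MIGR1 retrovirus, which carried GFP alone in the GFP groups and GFP with E47-ER, a fusion of E47 to the estrogen receptor, in the E47-ER groups. GFP-positive cells were sorted and grown in IL-33, IL-25 and IL-7. For the last 4 or 16 h they had 4-hydroxytamoxifen, the ligand that activates the fusion. Each of the 4 groups (GFP 4 h, E47-ER 4 h, GFP 16 h and E47-ER 16 h) held 2 libraries. The Id1 transgene and the drug were common to all 8 libraries, and no E47-ER library without the drug was analysed here, so effects of the drug-activated fusion and differences already there without the drug cannot be told apart. Nothing in the labels ties replicates to separate mice or cultures; the p-values therefore cover the spread among these libraries alone, and that spread may be technical. The comparisons asked how E47 activity changes gene expression in ILC2 at each time, and are read here for the folding genes.

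Chaperones bind proteins that are not yet folded or have lost their fold. In the cytosol, Hsp70 proteins with their J-domain partners and Hsp110 exchange factors take up new chains, prefoldin hands actin and tubulin to the ring-shaped chaperonin TRiC (also called CCT), and Hsp90 finishes kinases, receptors and other signalling proteins. In the ER, BiP (the product of Hspa5), Grp94 (Hsp90b1), the lectins calnexin and calreticulin and the protein disulfide isomerases fold proteins bound for secretion, which matters in a cell whose main products are cytokines. Heat shock factors act on heat shock elements in the promoters of cytosolic and mitochondrial chaperone genes. The unfolded protein response acts on ER stress response elements through ATF6 and the spliced form of XBP1.

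The stretches below are shown because, among the members, the ER stress response element was matched only in ER promoters. Some ER members were listed as genes induced by ER stress. The share with the element therefore describes the list and is no independent result. Promoters, from 250 bases before to 50 bases after the start site, were taken from RefSeq (GRCm38.p6) for 33 of the 40 members; Hspa8, Hsp90aa1, Hsp90ab1, Cct4, Pfdn1, Hyou1 and Manf had no entry. The ER stress response element was searched on both strands as CCAAT and CCACG with 9 bases of any kind between them. It was found in 7 of the 14 ER promoters (50%), in 0 of the 19 cytosolic and mitochondrial promoters, and in 37 of all 27025 promoters (0.137%). Capitals mark the match, which lies upstream of the start site in each, and the strand given is that of the gene.
Hspa5, chr2:34772005-34772063 (+): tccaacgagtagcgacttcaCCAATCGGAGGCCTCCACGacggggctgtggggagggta
Hsp90b1, chr10:86705618-86705676 (-): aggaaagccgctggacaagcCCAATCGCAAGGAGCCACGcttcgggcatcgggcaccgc
Hsp90b1, chr10:86705513-86705571 (-): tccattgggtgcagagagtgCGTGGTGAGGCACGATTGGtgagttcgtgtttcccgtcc
Dnajc3, chr14:118937807-118937865 (+): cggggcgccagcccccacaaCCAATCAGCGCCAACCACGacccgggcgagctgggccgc
Pdia6, chr12:17266471-17266529 (+): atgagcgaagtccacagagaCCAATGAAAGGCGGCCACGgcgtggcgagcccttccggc
Calr, chr8:84847055-84847113 (-): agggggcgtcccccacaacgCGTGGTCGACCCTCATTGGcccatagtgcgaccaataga
Canx, chr11:50325780-50325838 (-): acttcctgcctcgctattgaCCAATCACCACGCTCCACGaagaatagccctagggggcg
Creld2, chr15:88819500-88819558 (+): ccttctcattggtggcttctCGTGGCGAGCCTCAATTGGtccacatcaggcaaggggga

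The shorter ER stress response element II, ATTGG and CCACG with 1 base between them, was found on 1 strand or the other in 2 of the 14 ER promoters (14.3%; Herpud1 and Dnajb11), in 0 of the other 19 and in 12 of all promoters (0.0444%). Herpud1, whose product brings the ER degradation machinery together, is shown because it was the ER member with the largest difference at 4 h.
Herpud1, chr8:94386357-94386407 (+): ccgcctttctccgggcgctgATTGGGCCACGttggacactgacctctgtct

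A heat shock element of 3 alternating units, GAA, TTC and GAA with 2 bases between neighbours, on either strand, was found in 3 of the 19 cytosolic and mitochondrial promoters (15.8%; Hsph1, Hspd1 and Hspe1), in 0 of the 14 ER promoters and in 179 of all promoters (0.662%). Hspd1, for the chaperonin Hsp60, and Hspe1, for its lid Hsp10, lie head to head on chromosome 1. The RefSeq start sites used were 216 bases apart, so that both faced the same 2 overlapping matches. In the GENCODE M21 gene model Hspd1 reaches to 55088243, which puts the matches inside that gene. The stretch between the RefSeq start sites is shown because of the 16 h results. These 2 genes had the lowest log2 fold changes of all members at 16 h once 1 GFP library was left out (given with the 16 h results).
Hspd1 and Hspe1, chr1:55088034-55088101 (+): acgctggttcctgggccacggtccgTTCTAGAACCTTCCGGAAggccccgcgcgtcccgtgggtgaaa
E boxes of the letters CAGCTG or CACCTG, the kind that E proteins bind, were searched on both strands too. They were present in 4 of 19 cytosolic and mitochondrial promoters (21.1%; Hsph1, Dnajb1, Pfdn2 and Pfdn4), in 5 of 14 ER promoters (35.7%; Hsp90b1, Dnajb9, Pdia3, Calr and Xbp1) and in 35.9% of all promoters. A match of letters is a description of the window and not a measured binding site.

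Library totals ran from 8813782 to 18677675 counts. Esr1, which counts reads of the fusion, stood at 0.211 to 0.93 CPM (counts scaled to a common library size by TMM, per 1000000) in the GFP libraries and 43.7 to 54.4 in the E47-ER libraries, which matches the labels. Replicate 2 of GFP 16 h, the shallowest library, stood apart: its median absolute log2 difference from replicate 1 was 0.425 over genes, against 0.113 to 0.133 in the other groups, and it was rich in short transcripts. Among the 2726 genes with the shortest transcripts (up to 1437 bases) its median log2 ratio to replicate 1 was 0.57, and among the 2724 with the longest (4640 bases and more) it was -0.33. Results that rest on it are therefore given with and without it; without it, GFP 16 h has 1 library, whose spread is taken from the other 3 groups. The summed level of 12 ILC2 markers was 20038 to 30871 CPM, with Gata3, Il1rl1 and Il13 among them. The sum, whose largest terms were Il13, Il5 and Il2ra, was lower in both E47-ER libraries than in both GFP libraries at each time, with an E47-ER to GFP ratio of the means of 0.845 at 4 h and 0.729 at 16 h (0.817 without replicate 2 of GFP 16 h). Single markers were divided. At 4 h, 6 of 12 were lower in both E47-ER libraries, 4 (Rora, Il17rb, Icos and Ptprc) were higher and 2 overlapped (Il1rl1 and Klrg1). At 16 h 6 were lower, 3 higher and 3 overlapped. Of all tested genes, 22.9% were lower and 22.4% higher in this way at 4 h, and 26.6% and 27.8% at 16 h. The 7 T cell markers together reached 29.5 to 34.7 CPM in GFP libraries and 32.3 to 45 in E47-ER libraries, mainly from Cd3e, with Cd8a and Cd8b1 at 1 count each over all libraries. The 4 thymic epithelial markers reached 5.11 to 9.04 and 10.3 to 22.6 CPM, nearly all from Epcam, with Foxn1 at 0 counts, and the 5 myeloid markers 4.38 to 6.24 and 7.6 to 8.93 CPM, mainly from Adgre1 and Itgam, with Lyz2 at 2 counts over all libraries. B cell, NK cell and erythroid markers summed to at most 1.33 CPM in any library. The part of these markers in the chaperone differences was not tested. In these bulk libraries a lower level may stem from fewer cells that make an RNA or from less RNA per cell, which cannot be told apart.

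With all 8 libraries, 38 of the 40 members had enough counts to be tested. Hspa1a and Hspa1b, the stress-inducible Hsp70 genes, did not: Hspa1a had 19 counts over all 8 libraries, from 0 to 6 in each, and Hspa1b had 59, from 3 to 17. Hspa1b did enter the fit without replicate 2 of GFP 16 h and is counted among the members tested there. At 4 h Hspa1b had 1.07 and 0.581 CPM in GFP cells (17 and 11 counts) against 0.192 and 0.287 with E47-ER (3 and 4 counts). These groups did not overlap, as 22.9% of all tested genes did not with the lower values in E47-ER, and the E47-ER counts were close to the floor. Where Hspa1a had 0 counts, levels up to 0.218 CPM (replicate 2 of E47-ER 4 h) or 0.207 CPM (replicate 1 of E47-ER 16 h), the value of 3 counts, were possible. The transcripts of these 2 genes match over 2201 bases at 99.2% identity, so their reads cannot be divided with certainty. The 38 tested members were abundant, with a median of 292 CPM over the libraries against 21.9 for all 13644 tested genes, and the lowest, Pfdn4, had 22.5 CPM.

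Levels of different genes are compared per kilobase of transcript, as the mean of 8 libraries with the lowest and highest in brackets. Hsp90ab1, the constitutive cytosolic Hsp90, had the highest value of any member, 952 CPM per kilobase (852 to 1095). Calr, for the lectin chaperone calreticulin, followed with 548 (500 to 676), then Hsp90b1, for Grp94, with 431 (380 to 599). The ranges of Calr and Hsp90b1 overlapped, so their order was not fixed across libraries. Pdia3, a disulfide isomerase that works with the lectins, had 333 (318 to 382) and Hspa8, the constitutive cytosolic Hsp70, had 288 (202 to 330), which also overlapped. Cct2 was highest among the TRiC subunits at 233 (200 to 291), Manf among the smaller ER stress genes at 177 (149 to 281), and Pfdn5 among prefoldin subunits at 166 (134 to 310). Hspe1 stood at 157 (111 to 310), Xbp1 at 140 (127 to 153), Dnajb11, a J-domain partner of BiP, at 104 (97 to 112) and Dnajb1, a J-domain partner of cytosolic Hsp70, at 28.1 (24.8 to 29.5). The constitutive Hsp70 and Hsp90 genes were thus read at high levels while the counts of the inducible Hsp70 pair were close to their floor. How the counting treated reads that match both genes of that pair was not given. Their low counts therefore need not mean low expression.

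**Figure D1:**
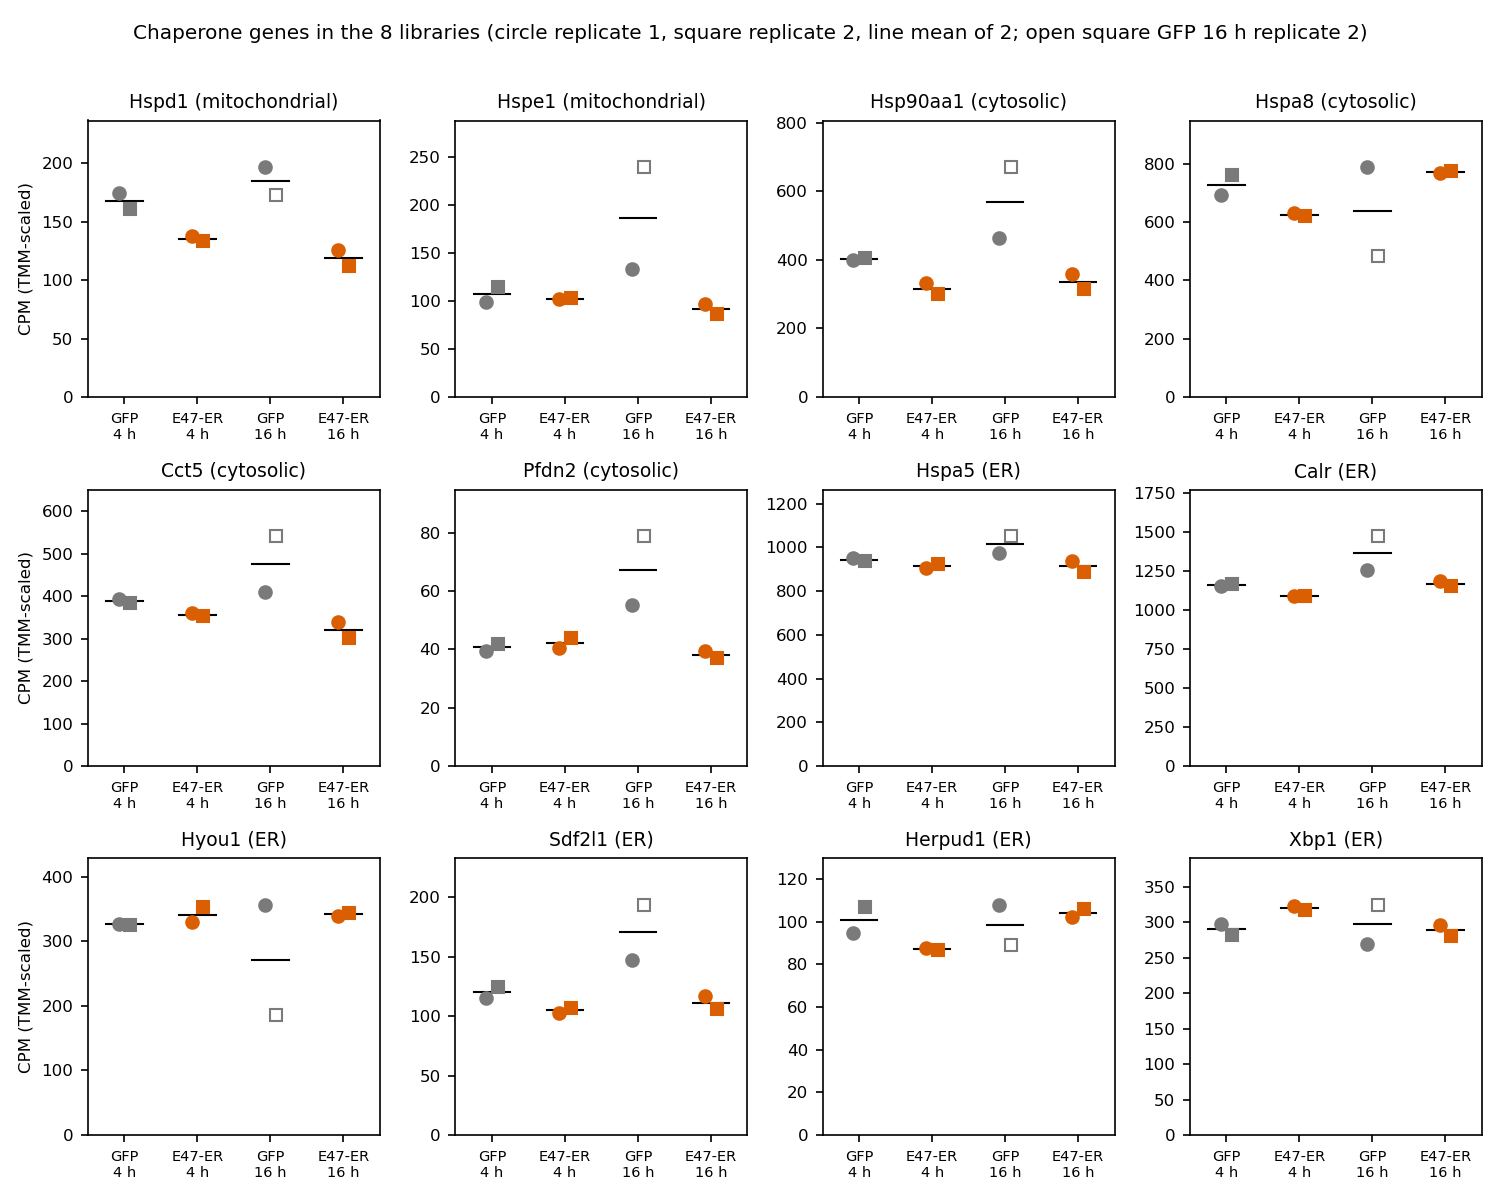
TMM-scaled CPM of 12 members in each library (vertical axes from 0), grouped by virus and time. Circles are replicate 1, squares replicate 2, lines the mean of both, and the open square is replicate 2 of GFP 16 h. Hspd1 and Hsp90aa1 lie lower in both E47-ER libraries than in both GFP libraries at each time, while Hyou1 and Hspa8 differ at 16 h mainly through the open square.

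At 4 h, most cytosolic chaperone genes had small negative log2 fold changes with E47-ER, as did most ER genes. With all 8 libraries, no member passed edgeR's quasi-likelihood test at an adjusted p under 0.05; 39 of all tested genes did (0.286%). At an unadjusted p under 0.05 there was 1 member, Hspd1, beside 5.82% of all genes, and DESeq2 called 0. The log2 fold change was negative for 16 of 20 cytosolic members (median -0.15) and for 11 of 16 ER members (median -0.07), against 50.9% of all tested genes. Both E47-ER libraries lay below both GFP libraries for 23 of 38 members, 15 of 20 cytosolic and 7 of 16 ER members with Hspd1, against 22.9% of all tested genes.

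Hspd1 (ENSMUSG00000025980; chromosome 1, 55077835 to 55088243, GRCm38) had 174 and 161 CPM in GFP cells against 138 and 133 CPM with E47-ER at 4 h. Hsp90aa1, the inducible cytosolic Hsp90 (ENSMUSG00000021270; chromosome 12, 110690605 to 110702728), had 399 and 405 CPM against 332 and 299. The groups did not overlap in either gene, and both E47-ER libraries were the low ones. The log2 fold change was -0.31 (SE 0.132, adjusted p = 0.849) for Hspd1 and -0.35 (SE 0.186, adjusted p = 0.975) for Hsp90aa1. Without replicate 2 of GFP 16 h, which enters this comparison only through the estimate of spread, both passed: -0.30 (SE 0.0827, adjusted p = 0.0363) and -0.35 (SE 0.0824, adjusted p = 0.0132). These were the only 2 of 39 members tested then, both lower, beside 4.33% of all genes (1.68% lower).

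Other members with large differences at 4 h were Hsph1, for the cytosolic Hsp110, Herpud1 and Sdf2l1, for a partner of BiP. Hsph1 had 57.5 and 69.3 CPM in GFP cells against 52.8 and 49 with E47-ER (log2 fold change -0.32, SE 0.283). Herpud1 had 94.7 and 107 CPM against 87.5 and 86.5 (-0.22, SE 0.14), and Sdf2l1 had 115 and 125 CPM against 103 and 107 (-0.20, SE 0.157). In all 3 genes both E47-ER libraries were below both GFP libraries, and none passed the test (adjusted p = 1 for each). Xbp1 went the other way, with 298 and 282 CPM in GFP cells against 323 and 318 with E47-ER (log2 fold change 0.14, 95% interval -0.168 to 0.453, adjusted p = 1).

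At 16 h the log2 fold changes of most cytosolic members were again negative, and the size depended on which GFP library was used. With all 8 libraries, 0 members passed edgeR's quasi-likelihood test (217 of all genes did, 1.59%), 21 were at an unadjusted p under 0.05, all lower, against 24% of all genes (13.6% lower), and DESeq2 called 10, all lower, beside 9.14% of the 11527 genes it gave an adjusted p (5.34% lower). The median log2 fold change was -0.49 for the cytosolic members, 19 of 20 of them negative, and -0.10 for the ER members, 12 of 16 negative; 50.4% of all tested genes were negative and their median was -0.01. Both E47-ER libraries lay below both GFP libraries for 26 of 38 members (16 of 20 cytosolic, both mitochondrial and 8 of 16 ER members), against 26.6% of all tested genes. Without replicate 2 of GFP 16 h, 14 of 39 members passed, all of them lower, beside 8.92% of all genes called in either direction, 4.53% lower and 6.8% lower among genes with at least 20 CPM. These were 10 of 21 cytosolic members, both mitochondrial members and 2 of 16 ER members. The medians were then -0.32 for cytosolic and -0.09 for ER members.

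The calls were compared with each GFP 16 h library left out in turn. Without replicate 1, 30 members passed, 26 lower and 4 higher, beside 7022 of 14435 genes in all (48.6%; 24.4% lower), so that replicate 1 also moved the count. Of the 14 members called without replicate 2, 13 (92.9%) were called lower without replicate 1 as well, which is 43.3% of that list; Hsph1 was the exception. The 10 members called by DESeq2 were all among the 14 (71.4%): Cct3, Cct5, Cct6a, Cct7, Cct8, Hsp90aa1, Hspd1, Hspe1, Pfdn2 and Sdf2l1. The other 4 were Hsp90ab1, Hsph1, Pdia6 and Tcp1. These settings share the E47-ER libraries.

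**Figure D2:**
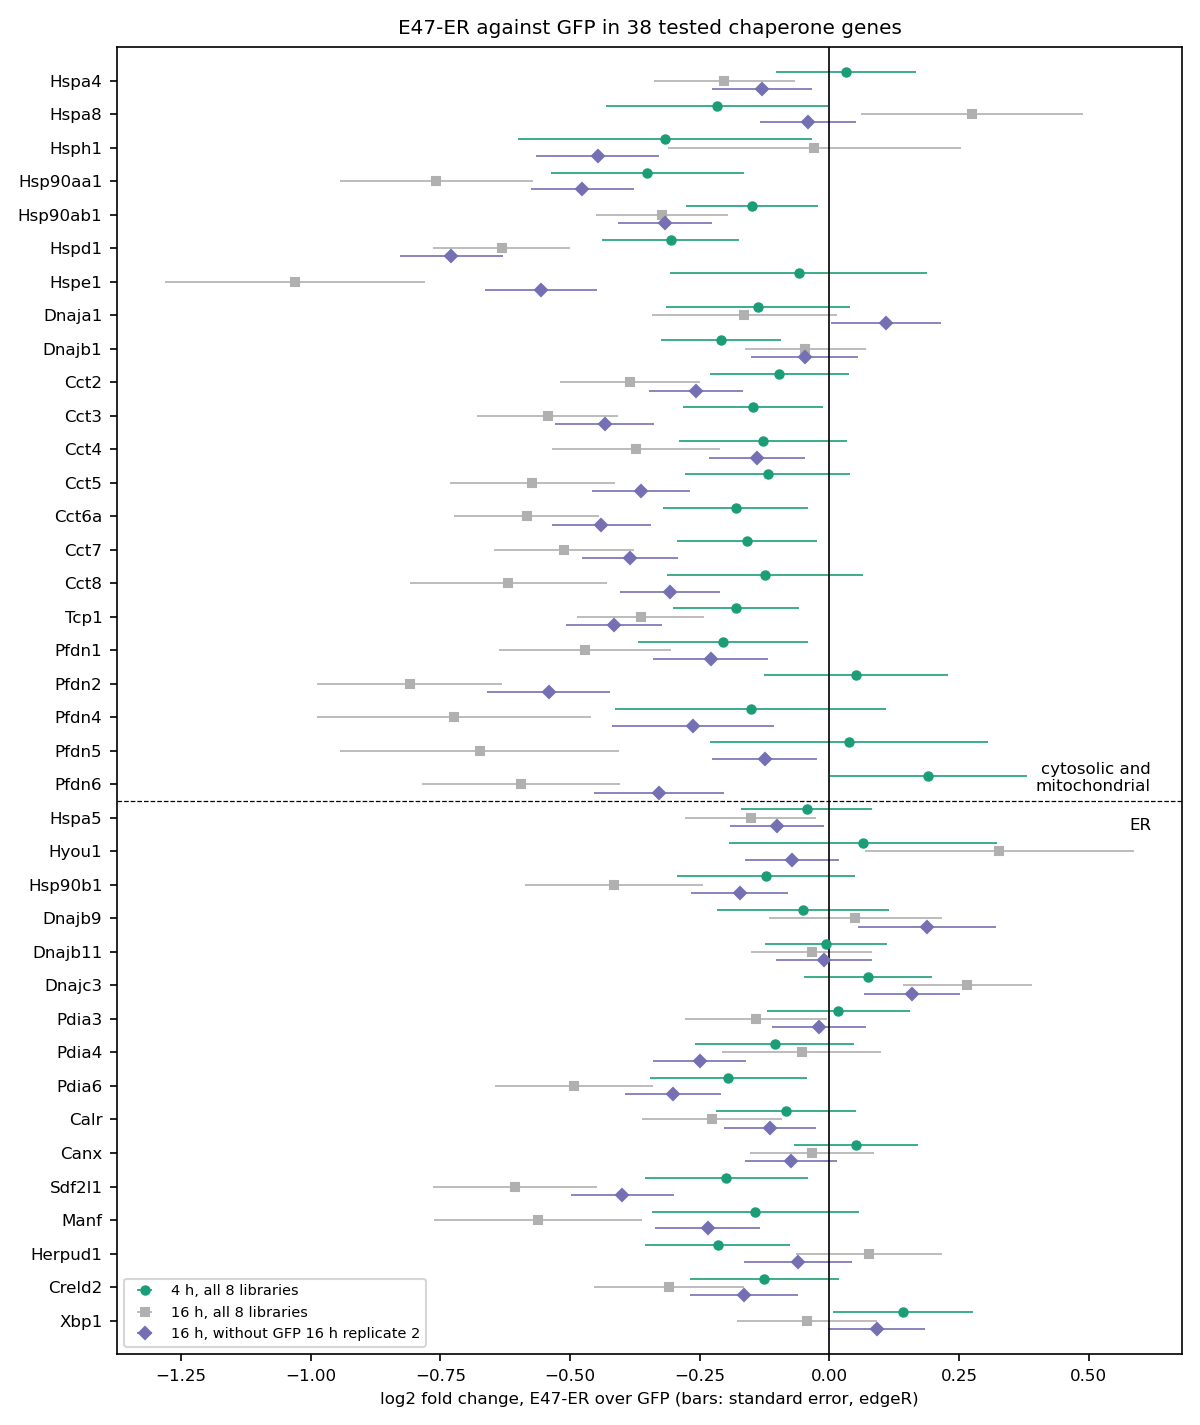
Log2 fold change of E47-ER over GFP (horizontal axis) for the 38 tested members, with cytosolic and mitochondrial genes above the dashed line and ER genes below. Circles are 4 h, squares 16 h with all 8 libraries, diamonds 16 h without replicate 2 of GFP 16 h, and bars are standard errors. TRiC and Hsp90 genes lie left of 0 in all 3 series. ER genes lie on both sides of 0, from -0.61 (Sdf2l1) to 0.33 (Hyou1) at 16 h with all 8 libraries.

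The mitochondrial chaperonin genes had the lowest log2 fold changes of the members when replicate 2 of GFP 16 h was left out; with all 8 libraries Pfdn2, Hsp90aa1, Pfdn4 and Pfdn5 were below Hspd1. Hspd1 had 197 and 173 CPM in GFP cells against 126 and 112 CPM with E47-ER at 16 h. The E47-ER libraries were below both GFP libraries, with a log2 fold change of -0.63 (SE 0.132, adjusted p = 0.0655); without replicate 2 of GFP 16 h it was -0.73 (SE 0.099, adjusted p = 2.67e-05). Hspe1 (ENSMUSG00000073676; chromosome 1, 55088132 to 55091307) had 133 and 240 CPM against 96.4 and 86. Its groups did not overlap either, and replicate 2 of GFP was far above replicate 1. The log2 fold change of Hspe1 was -1.03 with all libraries (SE 0.25, adjusted p = 0.0977) and -0.56 without replicate 2 (SE 0.108, adjusted p = 0.00156). Hspe1 has the shortest transcript of the members, 774 bases, and Hspd1 one of 2423 bases. Their exons overlap on opposite strands by 112 bases (7.6% of Hspe1), and the strand setting of the counting was not given.

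Both cytosolic Hsp90 genes were lower with E47-ER. Hsp90aa1 had 465 and 672 CPM in GFP cells against 359 and 314 with E47-ER (log2 fold change -0.76, SE 0.186, adjusted p = 0.0985). Hsp90ab1 (ENSMUSG00000023944; chromosome 17, 45567775 to 45573271) had 2713 and 2760 CPM against 2231 and 2146 (-0.32, SE 0.127, adjusted p = 0.183). Neither pair of groups overlapped, and the 2 GFP libraries lay close together for Hsp90ab1. Without replicate 2 of GFP 16 h both passed, Hsp90aa1 at -0.48 (SE 0.099, adjusted p = 0.00292) and Hsp90ab1 at -0.32 (SE 0.09, adjusted p = 0.0279). Summed, the pair stood at 2875 and 2839 CPM in GFP 4 h, 2538 and 2518 in E47-ER 4 h, 3179 and 3432 in GFP 16 h and 2590 and 2460 in E47-ER 16 h. The 3 pseudogenes nearly identical to Hsp90aa1 held 406 counts in all beside its own 46154.

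The 8 TRiC subunits behaved alike: each was lower in both E47-ER libraries than in both GFP libraries at 4 h and again at 16 h. Scaled by library totals alone this held for 7, with Tcp1 the exception at 16 h. Their summed level was 2764 and 2718 CPM in GFP 4 h, 2515 and 2464 in E47-ER 4 h, 2871 and 3525 in GFP 16 h and 2381 and 2178 in E47-ER 16 h. Log2 fold changes of the subunits ran from -0.18 to -0.10 at 4 h, where 0 of 8 passed in either fit, and from -0.62 to -0.36 at 16 h with all libraries. Without replicate 2 of GFP 16 h, 6 of 8 fell: Cct6a by 0.44, Cct3 by 0.43, Tcp1 by 0.42, Cct7 by 0.38, Cct5 by 0.36 and Cct8 by 0.31 on the log2 scale, with adjusted p from 0.00397 to 0.0464. Cct2 at -0.26 (adjusted p = 0.0813) and Cct4 at -0.14 (adjusted p = 0.412) did not pass. For Cct5 (ENSMUSG00000022234; chromosome 15, 31590800 to 31601804), the levels were 409 and 543 CPM in GFP 16 h and 339 and 301 in E47-ER 16 h. Cct6a overlaps Psph on the other strand over 12.5% of its exon bases, and Tcp1 overlaps Acat3 over 11.4%.

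Prefoldin, which feeds TRiC, did not share this pattern at 4 h. Its 5 members summed to 305 and 325 CPM in GFP 4 h and 306 and 330 in E47-ER 4 h, which overlapped. At 16 h the sums were 373 and 626 CPM in GFP cells against 330 and 305 with E47-ER, and the 2 GFP libraries were further apart than the groups. Pfdn2 (ENSMUSG00000006412; chromosome 1, 171345670 to 171359254) had 39.6 and 41.9 CPM in GFP 4 h, 40.4 and 44 in E47-ER 4 h, 55.2 and 79 in GFP 16 h and 39.4 and 36.9 in E47-ER 16 h. It was the only prefoldin member that passed at 16 h without replicate 2 (-0.54, SE 0.118, adjusted p = 0.0045; with all libraries -0.81, adjusted p = 0.0771). Pfdn2 overlaps Klhdc9 on the other strand over 27.6% of its exon bases. Pfdn5 had 169 and 329 CPM in GFP 16 h and 160 and 152 in E47-ER 16 h. Its log2 fold change went from -0.67 (adjusted p = 0.187) to -0.12 (adjusted p = 0.513) when replicate 2 was left out, so the difference came mostly with that library.

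Among the 5 tested cytosolic Hsp70, Hsp110 and J-domain genes, 4 (Hspa8, Hsph1, Dnaja1 and Dnajb1) were lower in both E47-ER than both GFP libraries at 4 h. At 16 h 1 (Hspa4) was. The shares of all tested genes were 22.9% at 4 h and 26.6% at 16 h. Dnajb1 had 88.5 and 86.8 CPM in GFP 4 h and 74.3 and 77.4 in E47-ER 4 h, and Dnaja1 had 97.4 and 100 against 94.3 and 85.4. Neither passed the test (log2 fold change -0.21, SE 0.116, and -0.14, SE 0.178, adjusted p = 1 for both). Hspa8 (ENSMUSG00000015656; chromosome 9, 40800984 to 40810087) had 693 and 761 CPM in GFP 4 h, 632 and 619 in E47-ER 4 h, 790 and 484 in GFP 16 h and 769 and 774 in E47-ER 16 h. Replicate 2 of GFP 16 h was the lowest of the 8 libraries. At 16 h its log2 fold change was 0.28 with all libraries and -0.04 without that library (95% interval -0.232 to 0.150, adjusted p = 0.851). Hsph1 had 80.3 and 39.6 CPM in GFP 16 h and 61.8 and 56.7 in E47-ER 16 h, with both E47-ER libraries between the GFP libraries. Its log2 fold change was -0.03 with all libraries (adjusted p = 0.955), -0.45 without replicate 2 (SE 0.119, adjusted p = 0.0188) and 0.60 without replicate 1, so that no direction can be given for Hsph1 at 16 h. Hspa4, another Hsp110, had 770 and 857 CPM in GFP 16 h and 707 in each E47-ER library (-0.20 with all libraries, -0.13 without replicate 2, adjusted p = 0.467). Dnaja1 and Dnajb1 lay at 93.4 and 134 against 106 and 96.5 CPM, and at 87.6 and 88.4 against 87.8 and 82.7 CPM, and both pairs of groups overlapped.

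In the ER, the genes for BiP and calreticulin did not pass with all 8 libraries or without replicate 2 of GFP 16 h. Hspa5 (ENSMUSG00000026864; chromosome 2, 34771970 to 34777547) had 950 and 938 CPM in GFP 4 h, 907 and 925 in E47-ER 4 h, 975 and 1054 in GFP 16 h and 937 and 889 in E47-ER 16 h. The E47-ER libraries were the lower ones at each time by a small margin, which did not hold at 16 h when libraries were scaled by their totals alone. The log2 fold change of Hspa5 was -0.04 at 4 h (95% interval -0.332 to 0.245) and -0.15 at 16 h (-0.441 to 0.137), and -0.10 at 16 h without replicate 2 (-0.288 to 0.086). Calr had 1150 and 1165 CPM in GFP 4 h, 1092 in each E47-ER 4 h library, 1259 and 1476 in GFP 16 h and 1186 and 1151 in E47-ER 16 h. Its log2 fold change was -0.08 at 4 h and -0.23 at 16 h (adjusted p = 0.317), and -0.11 without replicate 2 (95% interval -0.300 to 0.071). Without replicate 1 instead, Calr was called lower (-0.32, adjusted p = 0.00564) and Hspa5 was not (-0.19, adjusted p = 0.0955). Canx, for calnexin, had log2 fold changes of 0.05 at 4 h and -0.03 at 16 h (95% interval -0.308 to 0.242).

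Sdf2l1 and Pdia6, a disulfide isomerase, were the ER members that passed at 16 h without replicate 2. Sdf2l1 (ENSMUSG00000022769; chromosome 16, 17130138 to 17132383) had 147 and 194 CPM in GFP 16 h and 117 and 106 in E47-ER 16 h (log2 fold change -0.61, adjusted p = 0.111; without replicate 2 -0.40, SE 0.1, adjusted p = 0.0128). Pdia6 had 449 and 582 CPM against 380 and 352 (-0.49, adjusted p = 0.137; without replicate 2 -0.30, SE 0.0919, adjusted p = 0.0416). The groups did not overlap in either gene, and Sdf2l1, with a transcript of 1108 bases, was higher in replicate 2 than in replicate 1 of GFP. Manf, a secreted ER stress protein, had 414 and 631 CPM against 361 and 347, and its log2 fold change went from -0.56 (adjusted p = 0.165) to -0.23 (adjusted p = 0.169) without replicate 2. Hyou1, the ER Hsp110, had 357 and 186 CPM in GFP 16 h and 340 and 344 in E47-ER 16 h. Only replicate 2 of GFP 16 h was low: the log2 fold change was 0.33 with all libraries and -0.07 without it (95% interval -0.261 to 0.117).

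The 7 ER members with an ER stress response element are read here at 16 h without replicate 2 of GFP. Their log2 fold changes were -0.30 (Pdia6), -0.17 (Hsp90b1 and Creld2), -0.11 (Calr), -0.10 (Hspa5), -0.07 (Canx) and 0.16 (Dnajc3). With all libraries, Hspa5, Hsp90b1, Pdia6 and Calr were lower in both E47-ER than both GFP libraries at 4 h and at 16 h. So was Sdf2l1, which had no match, and so were 10.5% of all tested genes. Scaled by library totals alone, Creld2 was among them and Hspa5 was not. A difference between ER members with and without the element was not tested. Dnajc3, for a J-domain protein that also inhibits an eIF2 alpha kinase, was the only member higher in both E47-ER than both GFP libraries at 16 h, with 191 and 186 against 168 and 145 CPM; 27.8% of all genes were. Xbp1 had 269 and 325 CPM in GFP 16 h and 296 and 281 in E47-ER 16 h, which overlapped, and gene counts do not show how much of its RNA was spliced.

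A comparison within each library does not depend on how libraries are scaled. The summed CPM of the 24 cytosolic and mitochondrial members was divided by that of the 16 ER members. The ratio was 1.08 and 1.06 in GFP 4 h, 1.02 and 0.994 in E47-ER 4 h, 1.12 and 1.09 in GFP 16 h and 0.999 and 0.974 in E47-ER 16 h. All 4 GFP libraries were above all 4 E47-ER libraries, and replicate 2 of GFP 16 h lay between the other GFP libraries in this ratio. For the Hsp90 pair against the ER members the ratio was 0.377 to 0.413 in GFP libraries and 0.348 to 0.359 in E47-ER libraries, and for TRiC it was 0.361 to 0.401, replicate 2 of GFP 16 h being the highest, and 0.309 to 0.356. For the cytosolic Hsp70 and Hsp110 genes the ranges overlapped (0.157 to 0.222 and 0.206 to 0.218), as they did for prefoldin (0.0418 to 0.0712 and 0.0433 to 0.0455). Taken as the mean log2 CPM over tested members, which gives each gene the same weight, cytosolic and mitochondrial minus ER members was -0.705 to -0.443 in GFP and -0.873 to -0.743 in E47-ER libraries. The value of -0.443 was again replicate 2 of GFP 16 h, and the other 3 GFP libraries lay from -0.705 to -0.620. These ratios describe the libraries, and no test of the difference between compartments was made.

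**Figure D3:**
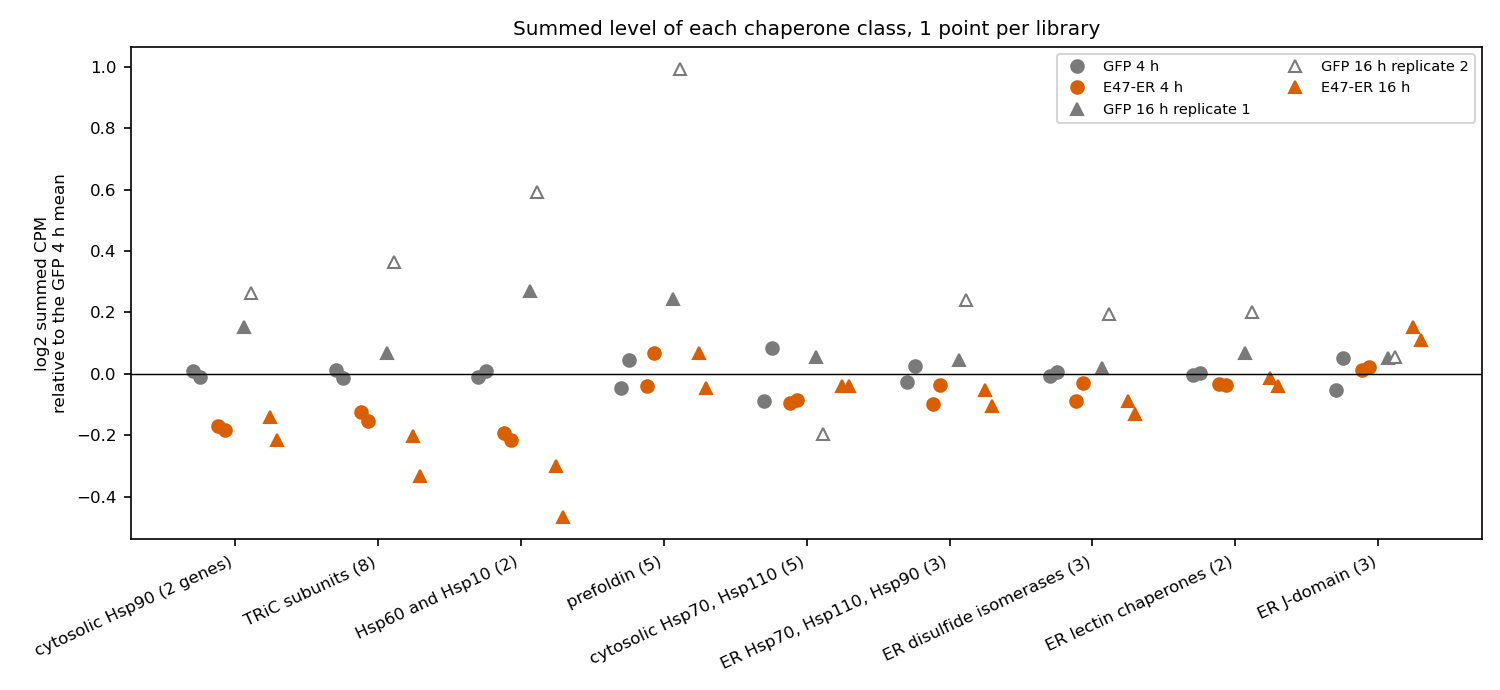
Summed CPM of each class of members, as log2 relative to its GFP 4 h mean (vertical axis), with 1 point per library. Grey is GFP, orange E47-ER, circles 4 h and triangles 16 h, and the open triangle is replicate 2 of GFP 16 h. Orange points lie below grey points of the same time for cytosolic Hsp90, TRiC and the chaperonin pair. The same holds, by smaller margins, for the ER Hsp70, Hsp110 and Hsp90 class, the disulfide isomerases and the lectin chaperones. Prefoldin differs at 4 h by less than its spread.

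Both times together, 17 of 38 members were lower in both E47-ER than both GFP libraries at 4 h and at 16 h, against 10.5% of all tested genes and 12.7% of those with at least 20 CPM. They were 11 of 20 cytosolic members (Hsp90aa1, Hsp90ab1, the 8 TRiC subunits and Pfdn1), Hspd1, and 5 of 16 ER members (Hspa5, Hsp90b1, Pdia6, Calr and Sdf2l1). Scaled by library totals, the count was also 17, with Manf and Creld2 in place of Tcp1 and Hspa5. The 2 times share no library. Across the 38 members, the log2 fold changes at 4 h and at 16 h had a Pearson correlation of 0.197 (Spearman 0.166) with all libraries and 0.445 (0.4) without replicate 2 of GFP 16 h; these describe genes of 1 set of libraries, which share complexes and are not independent.

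Transcript length moved with the 16 h values. Over the 38 members, the log2 ratio of replicate 2 to replicate 1 of GFP 16 h had a Pearson correlation of -0.538 with log2 transcript length (Spearman -0.485), and over 13620 tested genes -0.427 (-0.449). The log2 fold change at 16 h correlated with length at 0.623 (0.568) with all libraries and 0.381 (0.371) without replicate 2, and the one at 4 h at -0.0359 (0.043). Pfdn5, Pfdn4 and Hspe1, with transcripts of 1062, 935 and 774 bases, had log2 ratios of 0.96, 0.85 and 0.85. Hsph1 and Hyou1, with 3802 and 4489 bases, had -1.02 and -0.94. Hspa8, with 2394 bases, had -0.71, and Cct8, of the same length, had 0.58, so length did not order every member.

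**Figure D4:**
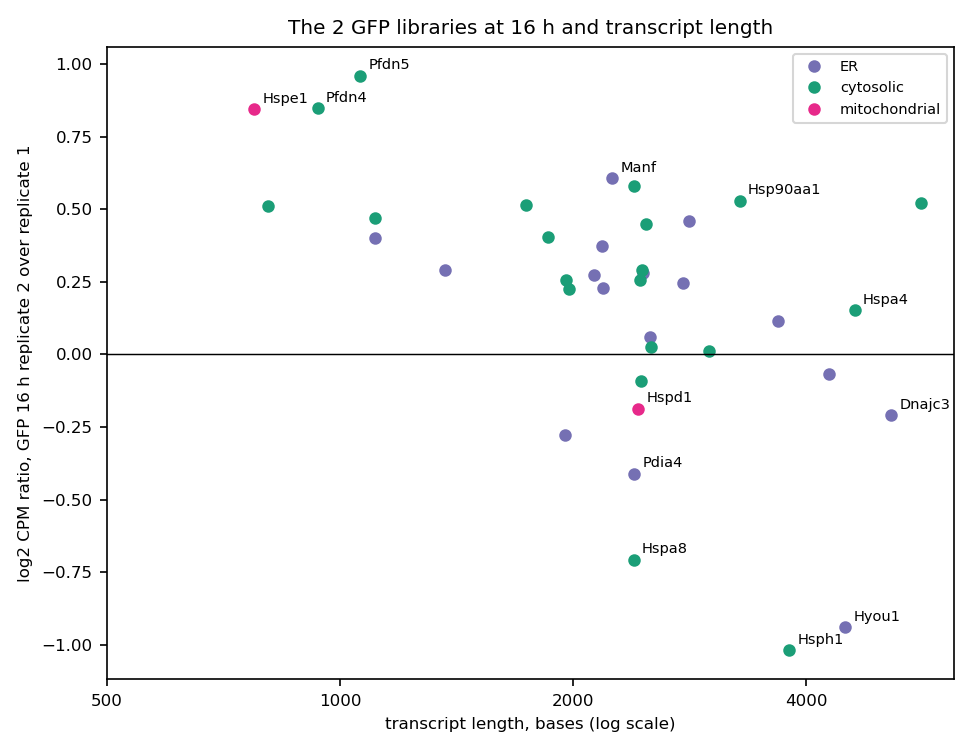
Log2 CPM ratio of replicate 2 over replicate 1 of GFP 16 h (vertical axis) against transcript length in bases (log scale) for the 38 tested members, coloured by compartment. Pfdn5, Pfdn4 and Hspe1 lie high at short lengths, and Hsph1 and Hyou1 lie low at long lengths.

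No member passed the test of the difference between the E47-ER effects at 16 h and 4 h with edgeR; 0 of all 13644 genes did (0%), 3 members had an unadjusted p under 0.05, beside 4.92% of all genes, and DESeq2 called 0. Hspe1 had the largest difference, -0.97 (SE 0.351, adjusted p = 0.699), and -0.50 without replicate 2 of GFP 16 h (adjusted p = 0.272). Pfdn2 had -0.86 (SE 0.251, adjusted p = 0.699), and -0.59 without it (adjusted p = 0.237). Among ER members the largest were Manf at -0.42 and Sdf2l1 at -0.41 (adjusted p = 0.699 for both). Without replicate 2, 0 members passed (0.0424% of all genes did; 6 members at an unadjusted p under 0.05, beside 7.83% of all genes), and without replicate 1, 23 did, beside 35.5% of all genes. So it was not shown that any member differed more at 16 h than at 4 h.

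In GFP cells, no member passed between 16 h and 4 h with edgeR (0% of all genes; 8 members at an unadjusted p under 0.05, beside 9.07% of all genes, and 0 by DESeq2). Most values at 16 h were the higher ones, with a median log2 fold change of 0.23 for cytosolic and 0.11 for ER members. Hspe1 had 98.6 and 115 CPM at 4 h and 133 and 240 at 16 h, a log2 fold change of 0.80 (SE 0.249, adjusted p = 0.5), and Sdf2l1 had 115 and 125 against 147 and 194 (0.50, SE 0.157, adjusted p = 0.5). In both genes replicate 1 at 16 h was already above both 4 h libraries. Pfdn5 had 142 and 156 against 169 and 329 CPM (0.74), and Manf 341 and 407 against 414 and 631 (0.48). Without replicate 2 the medians were 0.08 and 0.07, and 0 members passed (0.00707% of all genes; 8 members at an unadjusted p under 0.05, beside 6.23% of all genes), while 25 did without replicate 1, beside 41.8% of all genes.

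In E47-ER cells, no member passed between the times with all 8 libraries in edgeR (0.0147% of all genes; 0 members at an unadjusted p under 0.05, beside 5.09% of all genes, and 0 by DESeq2). Medians were -0.05 for cytosolic and 0.03 for ER members. Hspa8 went from 632 and 619 CPM to 769 and 774 CPM, a log2 fold change of 0.30 (SE 0.214, adjusted p = 1). The 2 E47-ER libraries of each time lay close together and the times did not overlap. Without replicate 2 of GFP 16 h, which is in neither group, Hspa8 rose by 0.29 (SE 0.0755, adjusted p = 0.039), 1 of 39 members beside 3.08% of all genes (1.74% higher). Hspa8 reads may include some of 6 nearly identical genes, which held 713 counts in all beside its 84283. Herpud1 went from 87.5 and 86.5 to 102 and 106 CPM (0.25, SE 0.14), Dnajb9, a J-domain partner of BiP, from 51.2 and 50.7 to 63.8 and 58.4 (0.26, SE 0.166), and Hsph1 from 52.8 and 49 to 61.8 and 56.7 (0.22, SE 0.283). These did not overlap between the times, as 25.8% of all genes did not with the higher values at 16 h, and did not pass (adjusted p = 1 for each).

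Genes of the same pathways outside the 40 were read from lists chosen by function. With all 8 libraries, 0 of 71 tested genes passed edgeR's test in the E47-ER comparisons at 4 h and 16 h. At an unadjusted p under 0.05 there were 4 and 22, beside 5.82% and 24% of all genes. DESeq2 called 0 and 6, beside 0.887% and 9.14% of all genes. Without replicate 2 of GFP 16 h, 8.92% of all genes passed at 16 h and 4.33% at 4 h, as given above, and the lists are read against these shares. In that fit, 3 of 25 heat shock factor and cytosolic cochaperone genes fell at 16 h and none rose: Hspbp1, an exchange factor of Hsp70 (-0.59, adjusted p = 0.00188), Fkbp4 (-0.46, adjusted p = 0.00373) and Ahsa1 (-0.40, adjusted p = 0.0109), both cochaperones of Hsp90. Of 8 further mitochondrial chaperone and protease genes, 4 fell and none rose: the protease Lonp1 (-0.56, adjusted p = 0.000551), the mitochondrial Hsp70 gene Hspa9 (-0.55, adjusted p = 0.000654), the mitochondrial Hsp90 gene Trap1 (-0.38, adjusted p = 0.0408) and the J-domain gene Dnaja3 (-0.44, adjusted p = 0.0486). Of 39 further ER folding, degradation and stress response genes, 1 fell and none rose, the transcription factor gene Atf4 (-0.39, adjusted p = 0.0102). At 4 h the genes called in that fit were Hspa2, an Hsp70 best known from testis (-0.66, adjusted p = 0.0104), Ahsa1 (-0.29, adjusted p = 0.0437), Lonp1 (-0.30, adjusted p = 0.037) and Atf4 (-0.35, adjusted p = 0.00914), all lower. The median log2 fold changes of the 3 lists at 16 h were -0.17, -0.33 and -0.05 in that fit. With all 8 libraries, the values at 16 h were -0.78 for Hspbp1, -0.42 for Fkbp4, -0.44 for Ahsa1 and -0.57 for Atf4. For the mitochondrial genes they were -0.23 (Lonp1), -0.43 (Hspa9), -0.26 (Trap1) and -0.29 (Dnaja3). The size of these differences thus depended on replicate 2 of GFP 16 h, most of all for Lonp1.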

How the data were processed

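RNA-seq of 8 mouse libraries was analysed from the gene counts deposited by the authors (raw counts per Ensembl gene ID, not normalized). The submitters' processing notes name the mm10 genome and DESeq2, without a role or version; the aligner, counter, annotation and strand setting were not given in the sources used here. IDs were matched to GENCODE M21 (GRCm38) symbols for 50376 of 50686. Genes were kept by edgeR's filterByExpr with a minimum count of 10, scaled by TMM and tested with edgeR's quasi-likelihood test (edgeR 4.0.16, R 4.3.3) in 1 fit over 4 groups, two-sided, with Benjamini-Hochberg adjustment over all genes and calls at an adjusted p under 0.05. DESeq2 1.42.0, library totals, other filters, replicate blocks and leaving out each library were alternatives. The procedure was tested on simulated data, where 41% of 2-fold changes were recovered at 4 h and 47% at 16 h. CPM are TMM-scaled counts per 1000000. Per-kilobase values use the longest principal transcript. Intervals are 95% and use edgeR's total degrees of freedom, which are the residual ones plus those borrowed across genes. Floors of 3 counts cover counting error only.

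All 40 members could be named. Values in every library were given for members called, for the member of each class with the highest level per length, and for the 2 cytosolic or mitochondrial and 2 ER members with the largest absolute fold change in each comparison; others were added after their values were seen. Members, lists and motifs were chosen with earlier results of these data known. Same-numbered replicates did not deviate together (r = 0.0761 at 4 h and -0.12 at 16 h, over genes), so numbers were not used to pair libraries.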

Additional observations from a re-analysis of the deposited data

Results flagged for a closer look

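Pfdn6, for a prefoldin subunit, was higher in both E47-ER libraries than in both GFP libraries at 4 h (54 and 57.6 against 48.9 and 48.9 CPM) and lower in both at 16 h (59.6 and 47.4 against 66.8 and 95.2 CPM). Opposite directions in every library are what brought it here. The log2 fold change at 16 h minus that at 4 h was -0.79 (SE 0.27, edgeR adjusted p = 0.699), and -0.52 without replicate 2 of GFP 16 h (adjusted p = 0.369). Over 4 fits the adjusted p of this difference ran from 4.82e-05, without replicate 1 of GFP 16 h, to 0.874.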

How the results depend on the processing

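With edgeR and all 8 libraries 0 members passed in each of the 5 comparisons. At 4 h, 2 passed with only the libraries compared (3.38% of all genes), and 0 to 2 when 1 library was left out. At 16 h, 10 passed with DESeq2 (9.14% of all genes), 7 with no filter on low counts (6.07%), and 0 to 30 when 1 library was left out (14 without replicate 2 of GFP 16 h, beside 8.92%, and 30 without replicate 1, beside 48.6%). For the difference between times the range on leaving out 1 library was 0 to 23 (35.5% of all genes at the highest). For time in GFP cells it was 0 to 25 (41.8%), and 2 passed with no filter (1.02%). For time in E47-ER cells it was 0 to 1, and 1 passed with only the libraries compared (7.32%). The cause of these shifts was not tested. With the replicate number as a block, within each time or across both, 0 members passed in any comparison, and 54 and 195 of all genes passed at 16 h against 217 without it. With the numbers crossed at 16 h, a pairing added after seeing the data, 0 members and 203 genes passed.

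The 32 member fold changes followed were those called or largest in these same data, and the alternatives were refits of the same counts. Most signs were therefore likely to hold. Of 572 alternative values of these 32 fold changes, 565 kept their sign. The 7 others were all Hsph1 at 16 h (-0.029 with all libraries): 0.057 with library totals, 0.0184 with no filter, 0.0588 and 0.0053 with the block within each time and across both, 0.0525 with the crossed block, 0.60 without replicate 1 of GFP 16 h and 0.0392 without replicate 2 of E47-ER 16 h; the cause was not tested. Over leaving out each library it ran from -0.45 (without replicate 2 of GFP 16 h) to 0.60. With 2 libraries a group and 8813782 counts in the shallowest, small differences among members may go undetected.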
